A study of Bos grunniens with 3 samples.

Results

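In white yak hair follicle, 1029 of 38551 cells carried UMIs of *DCN*, *ICA1*, *FABP7* and *DPP4* but few of the collagens *COL1A2* and *COL3A1*. These cells are described here as gated cells. A UMI is a unique molecular identifier, which marks 1 captured RNA molecule. In each library a cell with at least 200 detected genes was taken when *DCN*, *ICA1*, *FABP7* and *DPP4* together had 4 or more UMIs, *COL1A2* and *COL3A1* together fewer than 5, and the mitotic genes *TOP2A*, *CENPF* and *UBE2C* together fewer than 5. The anagen library gave 604 gated cells of 11987 kept cells, which is 5.04% (exact Clopper-Pearson 95% interval 4.65 to 5.45). The catagen library gave 263 of 12062, or 2.18% (1.93 to 2.46), and the telogen library gave 162 of 14502, or 1.12% (0.952 to 1.30). Among cells with at least 1000 detected genes the shares were 6.305%, 4.37% and 1.71%. By both limits the gated share was highest in anagen and lowest in telogen, and the catagen share lay closer to that of anagen by the stricter one. These intervals, and all others given here, cover counting error only.

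The cells came from scapular skin of Tianzhu white yak (*Bos grunniens*) of about 2 years, with 1 10x Genomics library for each of anagen (hair growth), catagen (regression) and telogen (rest). Skin was digested with dispase, hair follicles were pulled out, and trypsin then released single cells. The title and stage label of the catagen library say catagen while its protocol text says anagen, and it is called catagen here. The study's text describes the anagen and catagen cells and not the telogen library. It names 3 animals without tying them to libraries, and library, stage and the Cell Ranger version in the file headers change together and cannot be told apart. Whether the libraries came from different animals is not stated. With 1 library per stage, and with members chosen by their own counts, no difference between groups of cells or stages was tested.

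The libraries held 82862998, 51647865 and 103511775 UMIs in the order anagen, catagen and telogen, and every set of 3 values follows this order. They shared 43 cell barcodes between anagen and catagen, 40 between anagen and telogen and 49 between catagen and telogen, and 0 of these were shared by gated cells. Doublets, droplets that hold more than 1 cell, were left in.

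The hair follicle is built by epithelial cells around a dermal core. The dermal papilla and dermal sheath are mesenchymal cells that make collagens and signal to the epithelium, while the hair matrix is the pool of proliferating epithelial cells around the papilla. Matrix cells use the WNT effector *LEF1* and homeobox factors such as *MSX1*, *DLX3* and *HOXC13*, and their progeny form the hair shaft (HS), with cortex keratins such as *KRT85* and *KRT35*, or the inner root sheath (IRS), with keratins such as *KRT25* and *KRT71*. The study used *DCN* and *DPP4* as fibroblast markers. *DCN* encodes decorin, a small proteoglycan that binds collagen, and *DPP4* encodes a serine peptidase of the cell surface. *FABP7* encodes a fatty acid binding protein and *ICA1* a protein of vesicle trafficking. The question is whether the other genes of the gated cells are those of dermis or of hair matrix.

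Before the limits on collagen and mitotic genes, 1075, 464 and 263 cells had 4 or more UMIs of the gate genes. The collagen limit removed 27, 0 and 2 of them, whereas the mitotic limit removed 444 (41.3%), 201 (43.3%) and 99 (37.6%). The gated cells were deep, with a median of 8190.5, 6178 and 10804.5 UMIs against 5146, 3295 and 5544 in the other kept cells. A limit counted in UMIs is met more often in deep cells, and when every cell was thinned to 1500 UMIs the gated share was 1.56% in anagen, 0.837% in catagen and 0.233% in telogen. The order of the libraries was the same with and without thinning.

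The 4 gate genes were unequally divided between cells and libraries. *FABP7* had the most UMIs of the 4 in 383 of 604 anagen gated cells (63.4%, interval 59.4 to 67.3), in 62 of 263 in catagen (23.6%, 18.6 to 29.2) and in 87 of 162 in telogen (53.7%, 45.7 to 61.6). *DCN* led in 82 (13.6%), 130 (49.4%) and 31 (19.1%) gated cells. *DCN*-led cells were thus the most frequent kind in catagen, and *FABP7*-led cells in the other libraries. *ICA1* led in 68, 34 and 16 cells, *DPP4* led in 41, 20 and 24, and 30, 17 and 4 cells had a tie. At least 1 UMI of *DCN* was found in 44.2%, 75.7% and 33.3% of the gated cells. A single gate gene supplied all gate UMIs in 178, 49 and 76 cells, and all 4 were found together in 45, 8 and 3.

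**Figure D1:**
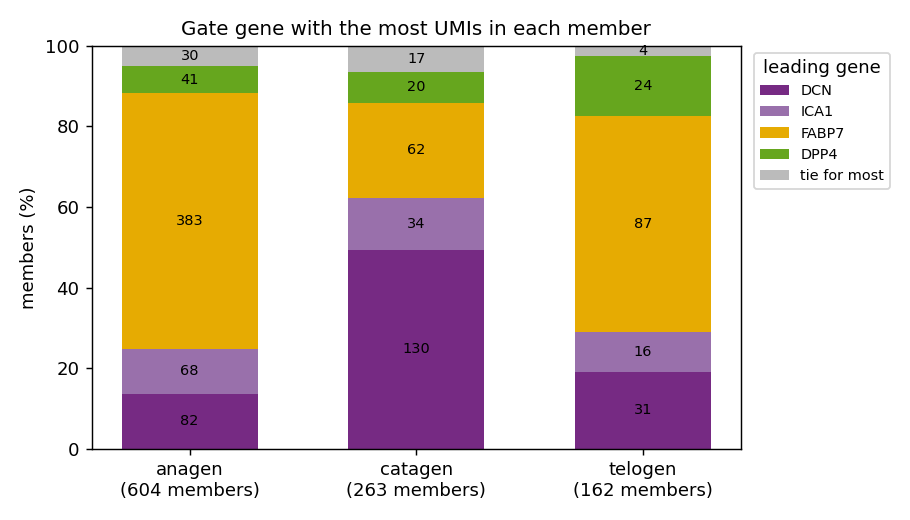
The vertical axis gives the percent of gated cells (members) in each library, split by which of the 4 gate genes had the most UMIs in the cell. *FABP7* led in 383 of 604 anagen and 87 of 162 telogen cells, and *DCN* in 130 of 263 catagen cells.

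Each gate gene was also examined in cells gated on the other 3 genes alone (3 or more UMIs, same limits), so that its own count played no part in the choice. Levels are given as CPM, counts per 1000000 of the summed UMIs of a group of cells. *DCN* had 175, 449 and 65.4 CPM in such cells against 39.6, 39.7 and 10.0 CPM in the remaining kept cells. *FABP7* had 589, 220.1 and 192 CPM against 94.0, 16.6 and 17.9 CPM. *DPP4* had 104, 153 and 57.5 CPM against 20.6, 14.3 and 7.02 CPM. All 3 of these genes were higher in the cells that the others picked, in each library. *ICA1* was also higher, but by the least of the 4 genes in each library, at 58.6, 119.5 and 25.6 CPM against 25.1, 20.7 and 5.47 CPM. Of all *DCN* UMIs of a library, 33.1%, 42.9% and 24.8% lay in gated cells, and a further 38.1%, 42.4% and 29.0% in the mitotic cells that passed the same gate.

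Most genes of dermal mesenchyme were at or near 0 in the gated cells. Of the 26 genes of the mesenchymal list, 22 had a row under their symbol, and 6, 6 and 4 reached 10 CPM in gated or other kept cells. A log2 ratio is taken after adding 10 CPM to each side. Of the genes at that level 0, 1 and 0 were at least 2-fold higher in the gated cells and 2, 3 and 2 at least 2-fold lower. The 1 that was higher, in catagen, was the matrix glycoprotein gene *FBLN1*, which reached 10 CPM there only through the gated cells. Among the 5, 4 and 4 genes that reached it in the other kept cells, 0 were at least 2-fold higher and 2, 3 and 2 lower. Over all genes at that level, 2.63%, 6.13% and 3.37% were at least 2-fold higher and 4.66%, 4.8% and 4.98% lower. The list medians of the log2 ratio were -0.81, -0.82 and -1.03, beside all-gene medians of 0.15, 0.26 and 0.07. The rule was set on the same contrast and takes out cells with collagen UMIs, so these counts are a description.

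Named dermal genes show the levels. *LUM*, which encodes lumican, a relative of decorin, had 0 UMIs in the gated cells of each library, and a count of 0, read as at most 3 UMIs over the group, allows a level of up to 0.520 CPM in the 5773325 UMIs of the anagen gated cells. *COL6A1*, a collagen VI chain, had 0, 1 and 1 UMIs. *PDGFRA*, a growth factor receptor of fibroblasts, had 1, 1 and 0 UMIs, and *FN1*, which encodes fibronectin, had 5, 1 and 1. These 4 genes were near the limit of detection in all 3 libraries. *VIM*, the mesenchymal intermediate filament gene vimentin, had 5.37, 7.71 and 13.2 CPM against 14.7, 13.1 and 15.8 CPM in the other kept cells, and was found in 7, 3 and 2 gated cells. After thinning to 1500 UMIs a *VIM* UMI was found in 0.828%, 0.769% and 0.633% of the gated cells and in 1.35%, 0.755% and 0.850% of the others. The gated shares rested on few cells, and no difference was detectable.

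Cells with dermal RNA were present, in small number, for comparison. Cells with 5 or more UMIs of *COL1A2* and *COL3A1* numbered 33 in anagen, 2 in catagen and 4 in telogen, and 27, 0 and 2 of them passed the gate before the collagen limit. In the 33 anagen cells *DCN* had 3563 CPM (609 UMIs) against 235 CPM in the gated cells. *VIM* had 919 CPM there, which is 171-fold the gated level. *LUM* had 363 CPM (62 UMIs), at least 698-fold higher than in the gated cells by the same limit of 3 UMIs. The collagen limit of the rule itself parts these 33 cells from the gated cells, so the size of these gaps is a description. Dermal genes could be measured where collagen was. *LEF1* had 17.6 CPM in the collagen-bearing cells from 3 UMIs. The 2 and 4 such cells of the other libraries are too few for a profile.

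**Figure D2:**
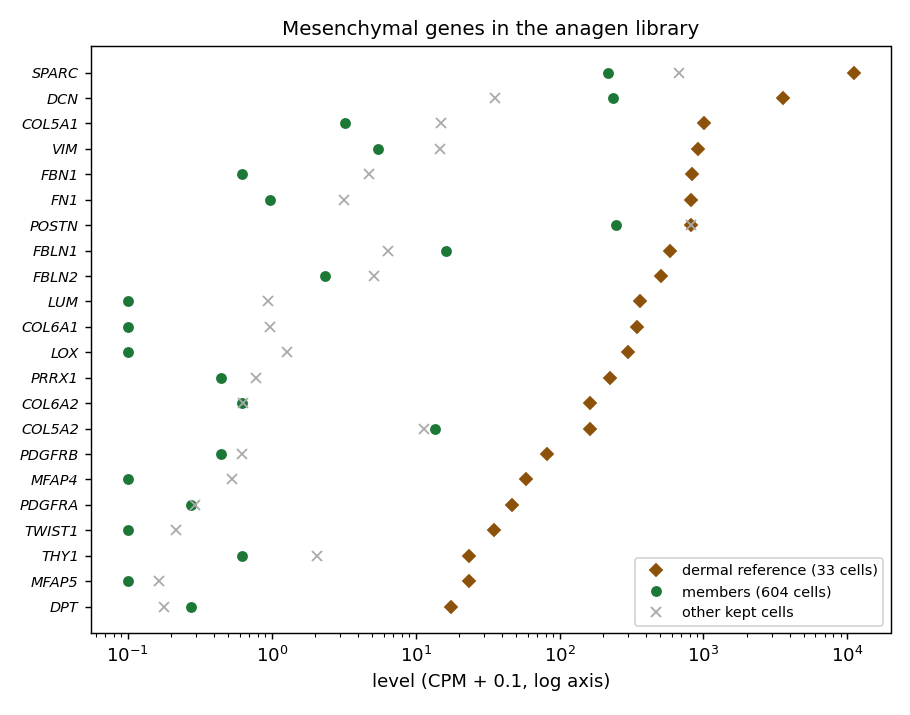
The horizontal log axis gives the level in CPM (0.1 added) of mesenchymal genes in the anagen library, for 33 cells with collagen UMIs, 604 gated cells (members) and the other kept cells. *LUM* and *COL6A1* had 0 UMIs in gated cells, and *DCN*, a gate gene, had 235 CPM there against 3563 CPM in the collagen-bearing cells.

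A few mesenchymal list genes had higher levels, and *SPARC* and *POSTN* had them in the other kept cells too. *SPARC*, which encodes a collagen-binding matrix protein, had 218, 199.9 and 244 CPM in gated cells against 676, 613 and 929.7 CPM in the others. *POSTN*, which encodes periostin, had 247, 92.5 and 357 CPM against 815, 849 and 944 CPM. Both were lower in the gated cells of each library. *FBLN1* had 16.3, 31.4 and 2.13 CPM against 6.35, 4.08 and 1.45 CPM, and its log2 ratio was 0.69, 1.56 and 0.08. *COL5A2*, a fibrillar collagen gene that the rule does not limit, had 13.5, 19.8 and 9.37 CPM in gated cells. In catagen it reached 10 CPM only through the gated cells, and it was not at least 2-fold higher in any library. Of the 14 dermal papilla and sheath genes 11 had a row, and *TAGLN* and *MYLK*, both of the contractile apparatus, reached 10 CPM. *TAGLN* had 104, 204 and 112 CPM against 180.3, 339 and 231 CPM and *MYLK* 8.31, 6.61 and 11.5 CPM against 32.8, 27.3 and 23.2 CPM, so neither was higher in gated cells. *RSPO3* had 0 UMIs in gated cells, and *CORIN*, a papilla marker, had 0 UMIs in gated and in other kept cells alike, so that it bears on neither. Of 8 other small leucine-rich proteoglycans of the *DCN* family none reached 10 CPM in gated or other cells. The most abundant in gated cells, *BGN* (biglycan), had 1.73, 2.20 and 2.13 CPM, and *FMOD* equalled it in catagen with 4 UMIs each.

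Genes that the study discussed for fibroblasts were divided. Of 7 such genes 5 reached 10 CPM in each library, and 1, 3 and 0 of these were at least 2-fold higher in gated cells while 1 in each was lower. The study chose these genes on the anagen and catagen samples, so in these libraries they are not independent evidence of direction. *MCM5*, of DNA replication, was the higher gene in anagen. In catagen *DNMT1*, the maintenance DNA methyltransferase, and *DGCR8*, of microRNA processing, were higher as well. *DGCR8* had 510.3, 505 and 385 CPM against 279, 167 and 228 CPM. *CD74*, a gene of antigen presentation, was the lower one, at 17.3, 13.2 and 14.9 CPM against 53.7, 163 and 90.3 CPM.

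Most hair matrix list genes at level were higher in the gated cells of every library. Of 25 list genes 21 had a row, and 11 of 15 at level were at least 2-fold higher in anagen, 11 of 15 in catagen and 9 of 13 in telogen, with 0 lower. The median log2 ratios were 1.18, 1.77 and 1.73. Of these genes 4, 5 and 7 reached 10 CPM only through the gated cells, where they were high, so the filter shapes the counts and medians. Of the 11, 10 and 6 that reached it in the other kept cells, 7, 6 and 3 were at least 2-fold higher and 0 lower. *LEF1* had 156 CPM (exact Poisson interval 146 to 167), 175 CPM (156 to 195) and 102 CPM (89.3 to 116) in gated cells against 17.9, 13.4 and 4.11 CPM in the others. *MSX1* had 92.3, 75.4 and 98.4 CPM against 14.2, 8.25 and 4.71 CPM. *HOXC13*, a regulator of hair keratin genes, had 60.6, 64.4 and 68.6 CPM against 7.41, 11.4 and 4.49 CPM. In each library the gated level of these 3 factors was the higher. *DLX3* had 318, 291 and 258 CPM against 129, 70.1 and 49.2 CPM, and *MSX2*, a homeobox factor of the matrix, had 49.4, 44.1 and 32.8 CPM against 7.70, 5.85 and 2.60 CPM.

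Ligands of the list were divided, and 1 further ligand is given for its rank. *WNT10A*, a WNT ligand, had 87.8, 93.1 and 82.6 CPM against 20.4, 23.9 and 12.5 CPM. *WNT6*, another WNT ligand, was not in the list but was among the 10 genes with the highest ratios in all libraries, with 145, 170.2 and 89.0 CPM against 26.1, 27.3 and 11.3 CPM. *SHH*, the hedgehog ligand of the matrix, had 23.0, 52.3 and 8.94 CPM against 4.56, 2.33 and 0.683 CPM, and was found in 65, 49 and 11 gated cells. The ligand was thus higher in each library, and with 10 CPM added its telogen ratio of 0.83 (log2) was under 2-fold. *GATA3*, a factor of the IRS lineage, was not higher, at 20.6, 39.1 and 20.9 CPM against 32.4, 54.0 and 21.5 CPM. *BMP2*, a bone morphogenetic protein ligand, and *NOTCH1*, a cell surface receptor, also lay within 2-fold in all libraries. *FOXN1*, a regulator of shaft differentiation, had 53.3, 26.4 and 60.1 CPM against 20.4, 21.4 and 11.1 CPM and lay within 2-fold in catagen.

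The share of cells with a UMI gave the same order at equal depth. After thinning to 1500 UMIs a *LEF1* UMI was found in 20.4% of anagen gated cells (interval 17.2 to 23.8), in 25.0% in catagen (19.9 to 30.7) and in 10.1% in telogen (5.90 to 15.9). The other kept cells had 2.30%, 1.27% and 0.394%. Cells with at least 5% of UMIs from the suprabasal keratins *KRT1* and *KRT10*, a type that should lack *LEF1*, had 0.472%, 0% and 0% (of 212, 314 and 567 cells, with upper interval ends of 2.60%, 1.17% and 0.648%). The gated cells were thus above this background in each library. Before thinning the gated shares were 57.9%, 53.2% and 51.9% and the suprabasal shares 3.30%, 0.556% and 0.341%, the latter at median depths of 8762.5, 6367.5 and 9273 UMIs. Thinning left out 0, 3 and 4 gated cells and 0, 2260 and 2928 other kept cells that were shallower.

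Genes of the hair cortex were higher in the gated cells too. Of 14 cortex genes 9 had a row, and 4 of 4, 4 of 4 and 6 of 6 at level were at least 2-fold higher in gated cells. In telogen 4 of the 6, among them *KRT35* and *HEPHL1*, reached 10 CPM only through the gated cells, against 0 in the other libraries. *KRT85* had 6093, 2619.7 and 5554 CPM against 564, 362 and 169 CPM and was found in 516, 123 and 106 gated cells. *KRT35* had 300.3, 326 and 320.3 CPM against 20.8, 28.0 and 8.13 CPM. *HEPHL1*, which encodes a ferroxidase, had 339.8, 328 and 173 CPM against 25.9, 26.1 and 5.12 CPM and headed the genes ranked by their lowest ratio over the libraries. Keratin genes have close copies, and how reads shared between copies were counted is not given in the sources used here, so their levels are uncertain. Other genes among the 10 highest were *ASS1*, an enzyme of arginine synthesis, at 64.1, 65.5 and 78.8 CPM against 6.40, 6.72 and 3.78 CPM. *MYL6B*, a myosin light chain, had 121, 76.5 and 75.8 CPM against 21.4, 6.64 and 5.88 CPM. *RNF34*, a ubiquitin ligase, had 181, 96.9 and 139 CPM against 18.0, 16.9 and 12.5 CPM, and completed the 10 with *LEF1*, *WNT6*, *MSX1* and *HOXC13*.

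**Figure D3:**
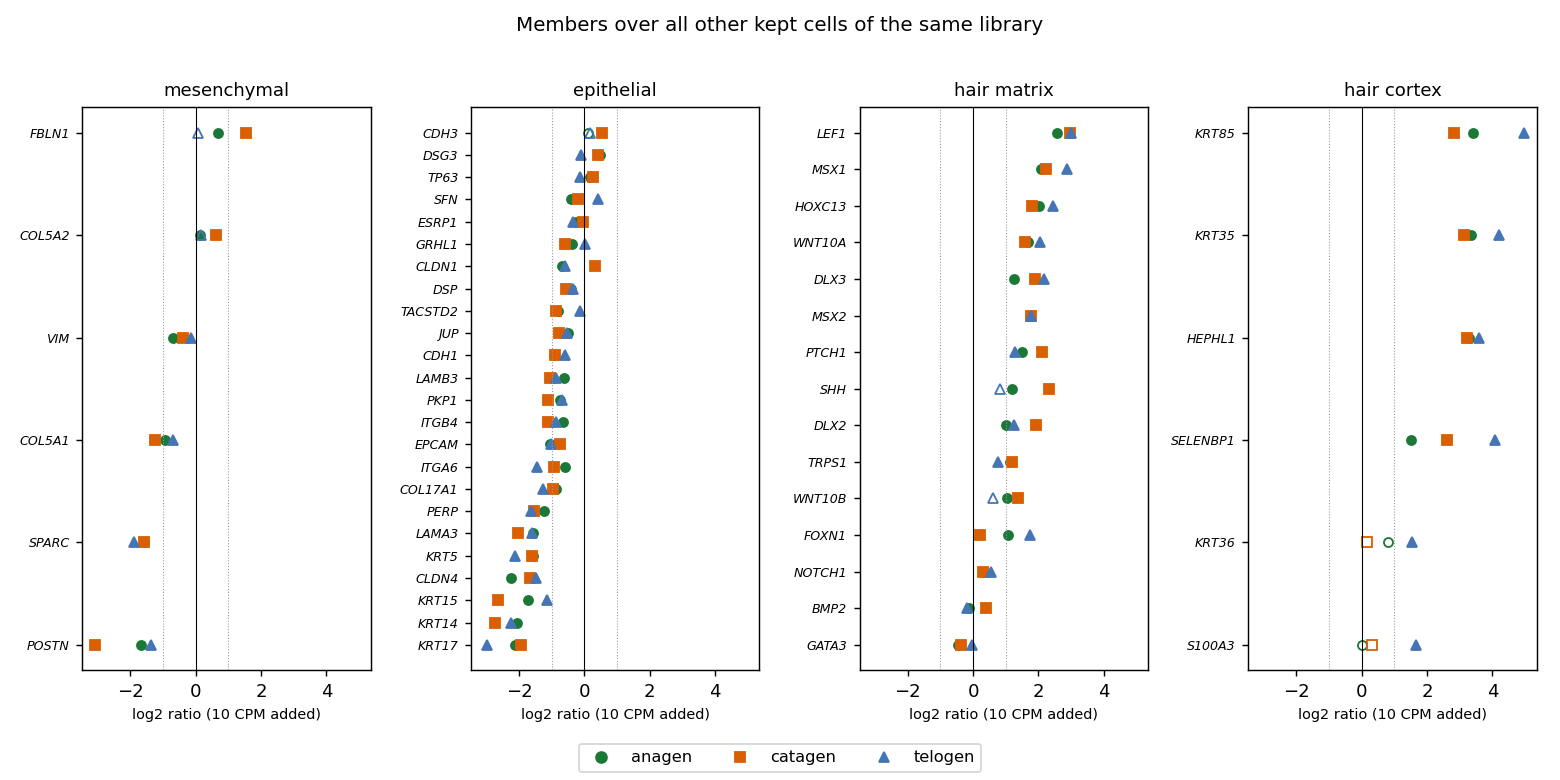
The horizontal axis gives the log2 ratio of gated cells (members) over other kept cells (10 CPM added to each side) for genes of several lists, with 1 symbol per library. *LEF1* lies at 2.58, 2.98 and 2.99 and *KRT14* at -2.05, -2.73 and -2.26, on opposite sides of 0.

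Genes common to epithelium were present in the gated cells. Of 25 epithelial list genes 24 had a row, and of 23, 24 and 23 at level 0 were at least 2-fold higher and 8, 10 and 10 at least 2-fold lower. *KRT14*, a basal keratin, had 2699.8 CPM (2658 to 2743), 1820.1 CPM (1759 to 1883) and 4318 CPM (4235 to 4403) against 11194, 12106 and 20656 CPM in the others. *KRT5*, its pairing partner, had 283, 486 and 347 CPM against 867, 1482 and 1551 CPM. Both basal keratins were lower in the gated cells of each library. *DSP*, which encodes the desmosomal protein desmoplakin, had 1575, 2321 and 1189 CPM against 2106, 3449 and 1506 CPM and was found in 582, 248 and 148 gated cells. *TP63*, the master regulator of stratified epithelium, had 28.1, 59.5 and 27.7 CPM against 23.9, 48.4 and 30.9 CPM. *CDH1*, or E-cadherin, had 17.7, 26.4 and 15.8 CPM against 42.7, 57.6 and 29.1 CPM. These 3 genes lay within 2-fold of the other cells in each library with 10 CPM added, while the basal keratins did not.

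Most suprabasal genes were lower in the gated cells, and genes of the outer root sheath and bulge were lower or within 2-fold. Of 10 suprabasal list genes with a row all 10 were at least 2-fold lower in anagen, as were 8 of 10 in catagen and 7 of 9 at level in telogen. *KRT1* had 911, 525 and 756 CPM against 4869.8, 4559 and 6311 CPM. *KRT10* had 788, 796 and 530.2 CPM against 3946, 5068 and 4882 CPM. Both suprabasal keratins were lower in each library. *SOX9*, of the outer root sheath and bulge, had 134, 79.3 and 77.1 CPM against 655, 545 and 398 CPM. *SFRP1*, a WNT inhibitor, had 63.0, 60.6 and 61.8 CPM against 349, 399.7 and 259.8 CPM. *F3*, or tissue factor, had 481, 267 and 194 CPM against 2164, 1345 and 1019 CPM, again lower in each library. *S100A7*, *AQP3*, *KRT17*, *ECM1* and *KRT14* completed the 10 lowest. Of the 16 outer sheath and bulge genes 14 had a row, 9, 11 and 8 reached 10 CPM, and 0 were at least 2-fold higher in any library while 5, 4 and 6 were lower.

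Most gated cells did not reach 1% of UMIs in any of the keratin families counted. With a threshold set after values were seen, cells without 1% of UMIs in any of 4 keratin families (cortex, IRS, basal and outer sheath, suprabasal) made up 66.1%, 81.0% and 61.7% of the gated cells and 20.8%, 19.3% and 9.69% of the others. The remaining 205, 50 and 62 gated cells (33.9%, 19.0% and 38.3%) reached 1% in at least 1 family. Of the mitotic cells that passed the gate, 88.3%, 93.5% and 81.8% were under 1% in all 4. Of the other mitotic cells, 43.2%, 65.9% and 14.6% were. The cortex family was *KRT85* and *KRT35* alone. The cortex keratins *KRT31*, *KRT33A*, *KRT83* and *KRT86* had no row, so cortex-rich cells may be undercounted. Cortex keratins reached 1% in 104 (17.2%), 22 (8.37%) and 29 (17.9%) gated cells and in 1.11%, 0.542% and 0.251% of the others. Basal and outer sheath keratins reached it in 14.1%, 9.13% and 17.9% of gated cells against 62.5%, 65.3% and 82.3%. The gated cells thus held more cortex-rich cells and fewer basal-rich cells than the rest of their libraries.

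The number of replication genes above the other kept cells differed between the libraries. Of 30 genes of DNA replication 24 had a row, and 7 of 23 at level were at least 2-fold higher in anagen, 20 of 23 in catagen and 0 of 19 in telogen, with 0 lower. Among the genes at level 3, 7 and 1 reached 10 CPM only through the gated cells, so the filter shapes these counts too. Among the 20, 16 and 18 that reached it in the other kept cells, 7, 14 and 0 were at least 2-fold higher and 0 lower. The median log2 ratios over all replication genes at level were 0.87, 1.49 and 0.43. *UHRF1*, which recruits DNA methyltransferase to newly copied DNA, had 185, 197 and 33.6 CPM against 50.2, 22.1 and 14.5 CPM. *MCM2*, of the replicative helicase, had 118, 135 and 34.9 CPM against 40.6, 20.0 and 22.5 CPM. *MCM3*, of the same complex, had 71.2, 106 and 39.2 CPM against 25.8, 11.9 and 17.1 CPM. Their levels in telogen gated cells were below those of the other libraries. With 1 CPM added, 12 genes passed in anagen and 4 in telogen (*MCM3*, *MCM5*, *UHRF1* and *HELLS*). After thinning all cells to 1500 UMIs 12 passed in anagen, 23 in catagen and 9 in telogen. Only 0.233% of telogen cells were then gated, so a single UMI can decide a telogen call and that count is no result. The rule limits mitotic genes in gated cells while the other kept cells include mitotic cells, so mitosis genes, of which 5, 0 and 4 were at least 2-fold lower, are no result.

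The gated cells differed among themselves by their leading gate gene. *DCN*-led and *FABP7*-led cells were compared in each library, a split chosen after values were seen. Over all genes at level 3.66%, 5.75% and 10.3% were at least 2-fold higher in *DCN*-led cells and 2.81%, 3.97% and 8.57% lower. Of the hair cortex genes 4 of 5, 4 of 4 and 5 of 5 were lower in *DCN*-led cells and 0 higher. *KRT85* had 9592, 8513 and 11117 CPM in *FABP7*-led and 710.3, 236 and 38.6 CPM in *DCN*-led cells. *HOXC13* had 92.1, 183 and 128 CPM against 6.83, 10.7 and 5.93 CPM, the latter from 5, 9 and 2 UMIs. *MSX1* had 121, 187 and 144 CPM against 17.8, 28.4 and 5.93 CPM. *FOXN1* had 74.4, 63.8 and 76.1 CPM against 24.6, 8.29 and 0 CPM. All 4 genes were higher in the *FABP7*-led cells of all 3 libraries. Cells with 1% or more of cortex keratins were 102, 21 and 29 of the *FABP7*-led and 2, 0 and 0 of the *DCN*-led cells. Basal and outer sheath keratins reached 1% in 28.0%, 10.0% and 64.5% of *DCN*-led and 12.5%, 6.45% and 5.75% of *FABP7*-led cells. Cells under 1% in all 4 families were 67.1%, 89.2% and 35.5% of the *DCN*-led and 59.0%, 56.5% and 59.8% of the *FABP7*-led cells.

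Of the hair matrix list 3 of 16, 2 of 16 and 2 of 15 genes at level were at least 2-fold higher in *DCN*-led cells and 6, 6 and 7 lower. *SHH*, *WNT10B* and many replication genes were on the higher side. *SHH* had 64.2, 87.7 and 23.7 CPM in *DCN*-led and 22.8, 32.9 and 10.7 CPM in *FABP7*-led cells. *WNT10B*, a WNT ligand, had 50.5, 33.2 and 17.8 CPM against 11.4, 14.4 and 0.896 CPM. Both ligands were higher in the *DCN*-led cells of each library. In telogen this rested on few counts, since all gated cells together held 21 UMIs of *SHH* and 15 of *WNT10B*. Replication genes were at least 2-fold higher in *DCN*-led cells for 13 of 23 in anagen, 11 of 23 in catagen and 7 of 21 in telogen, and 0 were lower. *UHRF1* had 310.1, 244 and 59.3 CPM against 103, 72.1 and 25.1 CPM. *WNT6* had 157, 206 and 71.2 CPM against 169, 185 and 119 CPM, and *WNT10A* had 102, 113 and 97.9 CPM against 110.1, 113 and 94.9 CPM, so these ligands differed little or in no fixed direction. *LEF1* had 94.3, 180.1 and 26.7 CPM in *DCN*-led and 211, 245 and 176 CPM in *FABP7*-led cells, and the difference was largest in telogen.

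Mesenchymal list genes were uneven in the *DCN*-led cells. Of 4, 5 and 4 genes at level in *DCN*-led or *FABP7*-led cells, 2 in each library were at least 2-fold higher in *DCN*-led cells and 0, 1 and 1 lower. The list summed to 1351, 463 and 3201 CPM in *DCN*-led and 373, 199.8 and 160.3 CPM in *FABP7*-led cells, against 1559, 1541 and 1920.4 CPM in the other kept cells, so the telogen sum was above that of the other cells. *POSTN* and *SPARC* made up most of these sums. *VIM* had 0, 3.55 and 0 CPM in them, *LUM* had 0 UMIs, and *PDGFRA* had 1, 0 and 0 UMIs. *SPARC* had 616, 259 and 1017 CPM in *DCN*-led against 150.0, 88.6 and 64.5 CPM in *FABP7*-led cells. *POSTN* had 679, 110.2 and 2154 CPM against 188, 55.6 and 55.5 CPM. Both were higher in *DCN*-led cells, and in telogen above the 929.7 and 944 CPM of the other kept cells. *KRT14* had 5188, 2139.9 and 16716 CPM against 2455, 1153 and 1428 CPM, so the basal keratin was also higher in *DCN*-led cells. In the 31 telogen *DCN*-led cells *LEF1* rested on 9 UMIs and *MSX1* on 2.

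**Figure D4:**
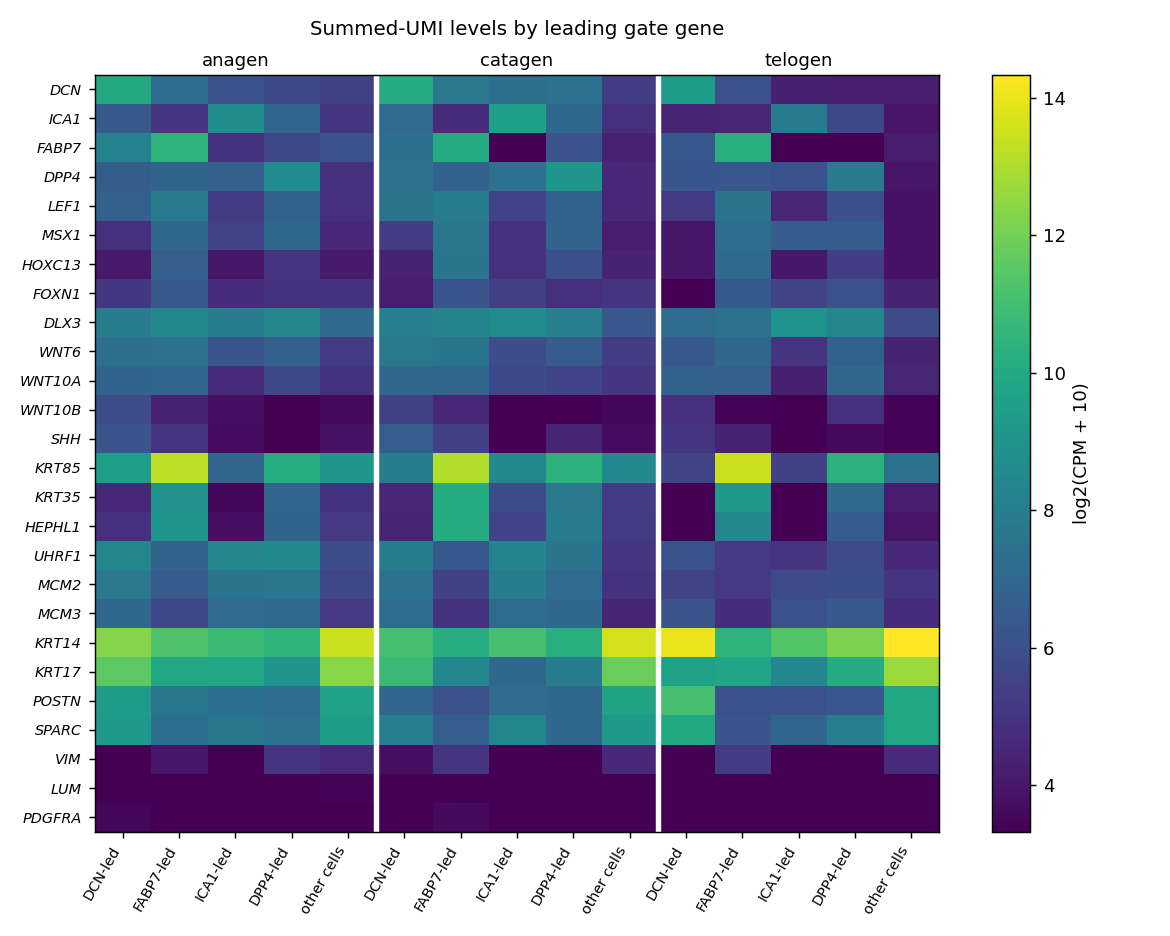
Colour gives log2(CPM + 10) of genes in gated cells split by their leading gate gene and in comparison cells, for each library. *KRT85* is highest in the *FABP7*-led columns (9592, 8513 and 11117 CPM), *SHH* is higher in the *DCN*-led than in the *FABP7*-led columns.

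*ICA1*-led and *DPP4*-led cells differed from both. In *ICA1*-led cells *UHRF1* had 311, 303 and 21.7 CPM, *LEF1* had 28.3, 36.7 and 12.4 CPM and *KRT85* had 116, 371 and 34.1 CPM. In anagen and catagen *LEF1* was thus lower there than in *DCN*-led or *FABP7*-led cells. In telogen it rested on 4 UMIs in *ICA1*-led and 9 in *DCN*-led cells, too few to separate them. In *DPP4*-led cells *LEF1* had 96.3, 98.2 and 55.1 CPM, *MSX1* had 122, 104 and 79.3 CPM and *KRT85* had 1164, 1337 and 1329 CPM. *SHH* had 2.57, 0 and 0 CPM in *ICA1*-led and 0, 12.3 and 2.20 CPM in *DPP4*-led cells. Cells with both *DCN* and *FABP7* at 2 or more UMIs numbered 124, 42 and 15, and had *SHH* at 95.7, 145 and 68.8 CPM and *LEF1* at 164, 200.1 and 172 CPM. In gated cells without a *DCN* UMI *SHH* was at most 2.56 CPM in any library.

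Clustering of each library without the rule genes placed most gated cells in 1 or 2 clusters. In anagen 42.9% lay in a cluster led by *KRT85*, *IL1F10*, *SPINK6* and *KRT35*, and 39.4% in a cluster whose leading genes were *UHRF1*, *MCM5* and *MCM2* beside the gate genes. In catagen 66.2% lay in a cluster led by *UHRF1* and *MCM3* beside the gate genes and 20.2% in a cluster led by *KRT85*, *KRT35* and *HEPHL1*. In telogen 82.1% lay in a single cluster led by the IRS keratins *KRT71*, *KRT27* and *KRT25* with *KRT85*. Gated cells were 48.3%, 42.0%, 42.1%, 22.6% and 24.5% of these 5 clusters in the order given, so each of them also held cells outside the rule.

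The mitotic cells that passed the gate, which the rule leaves out, were compared with the mitotic cells that did not. *LEF1* had 109, 113 and 74.8 CPM in them against 25.9, 51.1 and 2.80 CPM. *SHH* had 47.8, 35.9 and 16.0 CPM against 4.01, 2.02 and 0.992 CPM. *WNT6* had 139, 119 and 79.3 CPM against 35.3, 47.0 and 14.7 CPM. All 3 genes were higher in the gate-passing cells of each library. *KRT14* had 2024, 1012 and 3319 CPM against 10070.5, 6279 and 23761 CPM and was lower. *HOXC13* had 23.4, 21.1 and 22.3 CPM against 6.47, 18.7 and 2.53 CPM, and its catagen values did not differ beyond counting error (log2 ratio 0.17, exact interval -0.51 to 0.86). *KRT85* had 992, 344 and 993 CPM against 616, 433 and 72.1 CPM, lower in catagen and higher in the other libraries.

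Levels of *LEF1* and *KRT14* had already changed below the limit of 4 gate UMIs, though catagen *LEF1* and telogen *KRT14* also stepped at it. Cells with 3 gate UMIs, just outside, had *LEF1* at 54.5, 77.0 and 26.8 CPM, and cells with 4, just inside, had 68.0, 144 and 36.2 CPM. Cells with 0 gate UMIs had 6.37, 5.03 and 1.43 CPM and those with 10 or more had 191, 230.1 and 181 CPM. *KRT14* had 6427, 2467 and 13863 CPM just outside and 3866, 1482 and 7253 CPM just inside. For these genes the 160, 64 and 53 cells with 3 gate UMIs lay between cells with 0 and cells with 10 or more. *KRT85* had 289.9, 239.8 and 96.2 CPM at 0 gate UMIs, 4392, 1674 and 4378 CPM at 3 gate UMIs, 3011, 4336 and 2632 CPM at 4, and 8032, 1856 and 10255 CPM at 10 or more, so it was lower at 4 than at 3 in anagen and telogen and lower at 10 or more than at 4 in catagen. In catagen *HOXC13* was at 62.7 CPM at 3 gate UMIs and 52.2 CPM at 10 or more.

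**Figure D5:**
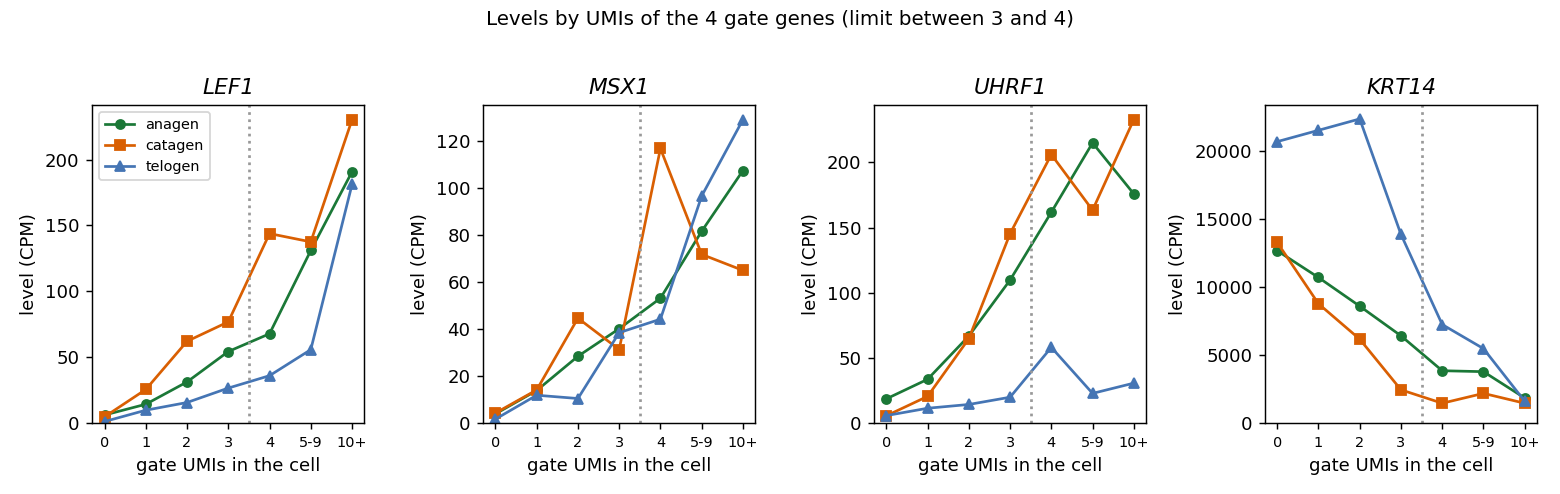
Each panel gives the level in CPM of 1 gene in cells grouped by their UMIs of the 4 gate genes, with 1 line per library. *LEF1* goes from 6.37, 5.03 and 1.43 CPM at 0 gate UMIs to 191, 230.1 and 181 CPM at 10 or more.

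Between stages, few genes of the gated cells differed 2-fold with 10 CPM added to each side. That addition shrinks the ratios of genes near 10 CPM, so low genes can differ more than the calls show. For catagen over anagen 1.64% of genes at level were at least 2-fold higher and 1.33% lower, and for telogen over anagen 1.57% and 2.4%. Both comparisons share the anagen library. Of 15 hair matrix genes 0 differed 2-fold in catagen and 1 was lower in telogen, with medians of 0.28 and -0.29, against -0.05 and -0.49 in the other kept cells. *KRT85* had a log2 ratio of -1.21 for catagen over anagen in all gated cells and of -0.17 within *FABP7*-led and -1.55 within *DCN*-led cells. *SHH* had 0.92 in catagen over all gated cells, 0.40 within *DCN*-led and 0.39 within *FABP7*-led cells, and -0.80 in telogen over all gated cells. *UHRF1* was lower in telogen, with -2.16 over all gated cells, -2.21 within *DCN*-led, -1.69 within *FABP7*-led and -1.30 in the other kept cells. Over 23 replication genes the median for catagen over anagen was 0.30 in gated cells, with 1 gene at least 2-fold higher, and -0.41 in the other cells. The telogen median was -0.72 with 4 at least 2-fold lower, against a median of -0.29 in the other cells, a difference that was not tested.

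Some of the largest catagen ratios rested on few cells or were shared with the rest of the library. *TYRP1* (3.79) and *PMEL* (3.51), pigment cell genes, had the highest log2 ratios of catagen over anagen, and 2 gated cells held 233 and 252 UMIs of *PMEL*, *TYRP1* and *MLANA*. *KRT77* (1.90), a suprabasal keratin, was found in 5 catagen gated cells and had a ratio of 1.45 in the other cells. *FAM13A* had a ratio of 1.57 in gated and 1.30 in other cells. *HNRNPA0*, an RNA-binding protein gene, had 23.9 CPM in anagen and 85.9 CPM in catagen gated cells, found in 111 and 109. Among the lowest, *S100A7* (-5.84), *S100A12* (-2.46), *AQP3* (-2.39) and *ITPKC* (-1.54) were low in the other cells too, at -4.42, -2.61, -2.08 and -2.22. *CYP4X1* was found in 8, 0 and 1 gated cells, and 95.6% of its anagen UMIs came from 1 cell.

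In telogen over anagen *CCHCR1* (3.13), *CA6* (2.89), *KRT27* (2.88), *KRT23* (2.84) and *PMP2* (2.76) had the highest log2 ratios. Of the telogen *KRT27* UMIs 97.0% lay in 3 cells, and the share in the top 3 cells was 85.2% for *CCHCR1*, 81.5% for *CA6*, 87.3% for *PMP2* and 67.8% for *KRT23*. These high ratios thus rested on very few cells. All 6 IRS list genes at level were at least 2-fold higher in telogen gated cells than in other cells. The counts were 0 of 6 in anagen and 0 of 7 in catagen. In telogen 2 of the 6, *KRT73* and *PADI1*, reached 10 CPM only through the gated cells, where they were high. The 4 that reached it in the other kept cells were all at least 2-fold higher. With 3 telogen cells rich in IRS keratins left out, 2 of 6 were higher and 2 lower, a drop that leaving out such cells must give. *PLAT* (-2.16), *CLDN4* (-1.96) and *ITPKC* (-1.95) were low in telogen, as in the other cells (-1.89, -2.73 and -3.23).

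Markers of other cell types were few in the gated cells. Of 8 endothelial genes with a row 0 reached 10 CPM in gated or other cells, and their summed level in gated cells was 6.24, 1.10 and 0.426 CPM. Of 6 immune genes with a row, with *CD74* the most abundant, the summed level was 21.8, 14.3 and 25.6 CPM against 65.0, 170 and 119 CPM, and *PTPRC*, the pan-leukocyte marker, had 0 UMIs in gated cells. Melanocyte genes, 6 with a row, summed to 8.83, 307 and 10.6 CPM, with 3 of 4 at level higher in catagen and *PMEL* the most abundant there at 137 CPM. *SOX10*, of melanocytes and glia, had 0 UMIs in gated cells. Of 9 Schwann cell and glia genes 5, 5 and 6 were at 0, and *PMP2* was the most abundant at 102, 36.3 and 752 CPM. Relatives of the other gate genes were checked as well. Of 10 fatty acid and retinoid binding protein genes 5 had a row and 3 were at level, of which 0, 0 and 1 (*PMP2*) were at least 2-fold higher and 2, 3 and 1 lower. With the 3 telogen cells rich in IRS keratins left out, 0 were higher and 3 lower in telogen. Of 8 peptidase genes related to *DPP4* 7 had a row, 1, 2 and 2 were at level, and 0 differed 2-fold. A further count used 597, 258 and 159 gated cells, without those that had IRS keratins at 1% or *KRT75* at 0.2% of UMIs or 10 UMIs of *PMEL*, *TYRP1* and *MLANA*. Cells rich in cortex or basal keratins stayed in. Of the hair matrix genes 12, 11 and 9 were then at least 2-fold higher.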

How the data were processed

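Hair follicle cells of Tianzhu white yak were profiled with 10x Genomics 3' libraries, 1 per stage. The authors deposited filtered matrices of UMI counts per gene and cell, made with Cell Ranger (2.1.1 in the submitters' processing notes, and 4.0.0, 3.1.0 and 6.0.2 per the file headers of anagen, catagen and telogen). The genome build is not given in the sources used here. The matrices list 26924 genes, of which 15765 have a symbol, and genes without one could not be matched to a list.

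A minimum of 200 detected genes per cell left out 13, 62 and 71 barcodes. UMIs were summed over the cells of a group and scaled to 1000000 (CPM), and log2 ratios were taken with 10 CPM added to each side. Genes with 10 CPM or more in either group were counted, and a 2-fold ratio was called. There was 1 library per stage, so no test was made. Intervals are 95% exact binomial (Clopper-Pearson) or exact Poisson and cover counting error only, since cells of 1 library share their source. A count of 0 was bounded with 3 UMIs. Replicate error between animals is unknown.

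Clusters came from 2000 variable genes, less those of the rule, with 30 components, 15 neighbours and Leiden resolution 1 (scanpy 1.11.5, igraph 0.11.9). Scrublet marked 0, 1 and 0 cells, whether it missed doublets was not tested, and doublets were left in. With the highest 5% of its scores left out, the gated share was 5.05%, 2.10% and 1.10%. Of the hair matrix genes 10, 11 and 9 were then at least 2-fold higher in gated cells. Named genes were those of the rule and of 18 lists, the 10 highest and 10 lowest ratios in all libraries among genes with at least 50 CPM, and the 5 highest and 5 lowest of each stage comparison. The members and lists were chosen with earlier results of these data known. The split by leading gate gene and the thresholds on keratin and pigment genes were set after values were seen. *UHRF1* was taken out of the list of the study's fibroblast genes after values were seen, because the study's text does not name it; with it 6 genes were at level and 2, 4 and 0 higher. The ratio step was tested on simulated data. Python 3.11.15, numpy 2.4.6, pandas 2.3.3, scipy 1.17.1 and matplotlib 3.10.9 were used.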

Additional observations from a re-analysis of the deposited data

How the results depend on the processing

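Of 153 values recomputed under alternatives, 128 stayed within their counting interval or, for counts of genes, within 1.5 times, and 25 moved, and the counts of hair matrix genes at least 2-fold higher in gated cells stayed within 1.5 times in all 33. The gated share rose to 6.305%, 4.37% and 1.71% (anagen, catagen, telogen) among cells with at least 1000 genes. It fell to 3.64%, 1.52% and 0.724% with a gate of 6 UMIs and to 1.56%, 0.837% and 0.233% after thinning to 1500 UMIs. With *DCN* left out of the gate it was 4.40%, 1.33% and 0.917%. A higher gate, thinning and a gate without *DCN* lower the share by construction, as fewer cells or fewer counts enter. After thinning, mesenchymal genes at least 2-fold higher numbered 1 (*FBLN1*), 2 (*VIM* and *FBLN1*) and 2 (*PDGFRB* and *FBLN1*), epithelial genes 1 (*DSG3*), 1 (*CDH3*) and 3 (*CDH3*, *DSG3* and *SFN*), and replication genes 12 in anagen and 9 in telogen. So few telogen cells were then gated that a single UMI can decide a call, and these telogen counts are no result. *PDGFRB* had 1 UMI in all telogen gated cells before thinning. With 1 CPM added there was 1 mesenchymal gene in anagen (*FBLN1*), 1 epithelial gene in catagen (*CDH3*), and 12 replication genes in anagen and 4 in telogen. With the mean of each cell's CPM in place of summed UMIs, an alternative added after seeing the data, as was leaving out cells with IRS keratins at 1% or *KRT75* at 0.2% of UMIs or with 10 pigment gene UMIs (597, 258 and 159 gated cells kept), telogen had 4 replication genes. The cause of these changes in counts was not tested. Depth limits genes near 1 UMI per cell. *VIM* had 31, 14 and 31 UMIs over all gated cells, held by few of them. No paired analysis was possible because each stage has 1 library.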
